A study of Mus musculus with 6 samples.

Results

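Small nucleolar RNAs (snoRNAs), their Cajal body relatives and the transcripts that carry them in their introns were followed in hypoxic mouse lung with and without NFAT5 in endothelial cells. Every named feature of the array table whose mouse symbol began with Snora, Snord, Scarna or Snhg, or was Gas5, was taken, which gave 126 of 25428 features. They comprised 65 C/D box snoRNAs (Snord), 34 H/ACA box snoRNAs (Snora), 8 small Cajal body RNAs (Scarna) and 19 host transcripts (18 Snhg entries and Gas5). The 107 snoRNAs and Cajal body RNAs are called guide RNAs here. One Snhg entry, Snhg7os, is a transcript opposite Snhg7, and no guide RNA among the members lay within it. The set was chosen by name, but with the differences between the genotypes in these arrays in view, so the values of the members in that comparison are given as a description. Where members are counted as called, the count says how many passed the threshold of the fit over all features and serves as no test of the set.

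Lungs of 3 Nfat5(EC)-/- mice, in which the labels place the Nfat5 knockout in endothelial cells, were compared with lungs of 3 Nfat5fl/fl mice, which carry Nfat5 alleles flanked by recombination sites. All 6 mice had breathed 10% oxygen for 7 days, and lungs from normal air were not analysed here, so the values describe the genotypes under low oxygen only. Total RNA of 1 lung lobe per mouse was hybridised to 1 Affymetrix expression array per mouse, and the mice carry the numbers 1, 3 and 4 in both groups. The sources used here give neither the promoter that drives the deletion nor the age or sex of the mice. The question was how loss of NFAT5 from the endothelium changes the transcripts of a hypoxic lung, NFAT5 being a transcription factor best known for its part in osmotic stress.

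C/D box snoRNAs form particles with the methyltransferase fibrillarin and direct methylation of ribose in ribosomal RNA, whereas H/ACA box snoRNAs work with dyskerin and direct the conversion of uridine to pseudouridine. Small Cajal body RNAs guide the same modifications in spliceosomal RNAs. In mammals most guide RNAs are cut out of introns of host genes after splicing, and the remaining host mRNA or non-coding RNA has a fate of its own, so that a host transcript and its guide RNA are separate products of one precursor.

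The values are log2 values made by robust multi-array average (RMA), which corrects background, equalises the distributions of the arrays and condenses the probes for each gene into 1 value. They spanned 0.725 to 13.01 over all features with a median of 2.98, and every difference below is the Nfat5(EC)-/- mean minus the Nfat5fl/fl mean. A value describes one feature across arrays, and values of different features do not rank the amounts of their RNAs. The arrays of the Nfat5(EC)-/- lungs correlated with each other at 0.916 to 0.939 across features and those of the Nfat5fl/fl lungs at 0.968 to 0.97. Nfat5 itself read 4.46, 4.48 and 3.89 in Nfat5(EC)-/- mice 1, 3 and 4, against 6.65, 6.58 and 6.30 in the Nfat5fl/fl lungs (difference -2.23, SE 0.23). The groups did not overlap for Nfat5. Xist, expressed from the inactive X chromosome, read 2.03 to 2.28 in the Nfat5(EC)-/- lungs, 8.22 in Nfat5fl/fl mouse 1 and 2.36 and 2.37 in the other Nfat5fl/fl mice, so that this 1 mouse stood apart. The Y-linked gene Kdm5d read 2.08, 1.96 and 2.16 in Nfat5(EC)-/- mice 1, 3 and 4, against 1.57, 4.02 and 3.94 in the Nfat5fl/fl mice, and the Y-linked gene Uty read 2.05, 3.29 and 4.30 in the Nfat5(EC)-/- mice, against 2.22, 4.90 and 4.48 in the Nfat5fl/fl mice. Among the Nfat5fl/fl mice, mouse 1 thus had high Xist with low Kdm5d and Uty, a female pattern, and mice 3 and 4 had the reverse. In the Nfat5(EC)-/- mice both Xist and Kdm5d were low and Uty varied, so these genes did not sort them. The part of sex in the differences was not tested. Results are also given without Nfat5fl/fl mouse 1. The lung markers Sftpc and Scgb1a1 averaged 11.76 and 11.94 in Nfat5(EC)-/- lungs, and 12.20 and 12.53 in Nfat5fl/fl lungs.

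Across all features the limma fit called 6510, with 3185 higher and 3325 lower in Nfat5(EC)-/- lungs at an adjusted p under 0.05 (Benjamini-Hochberg), which is 12.5% and 13.1% of the features, or 25.6% in either direction. Among the guide RNAs 85 of 107 were called higher and 0 lower, and their median difference was 2.17, against 0.042 for all features. Among the 19 host transcripts 1 was called higher and 1 lower, and the median was -0.19. Nothing is read from these counts, because values of the same comparison were known when the set was chosen. Without Nfat5fl/fl mouse 1, 49 C/D snoRNAs, 23 H/ACA snoRNAs, 5 Cajal body RNAs and 1 host transcript were called higher and 0 lower, with medians of 2.20, 2.17, 1.71 and -0.07.

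**Figure D1:**
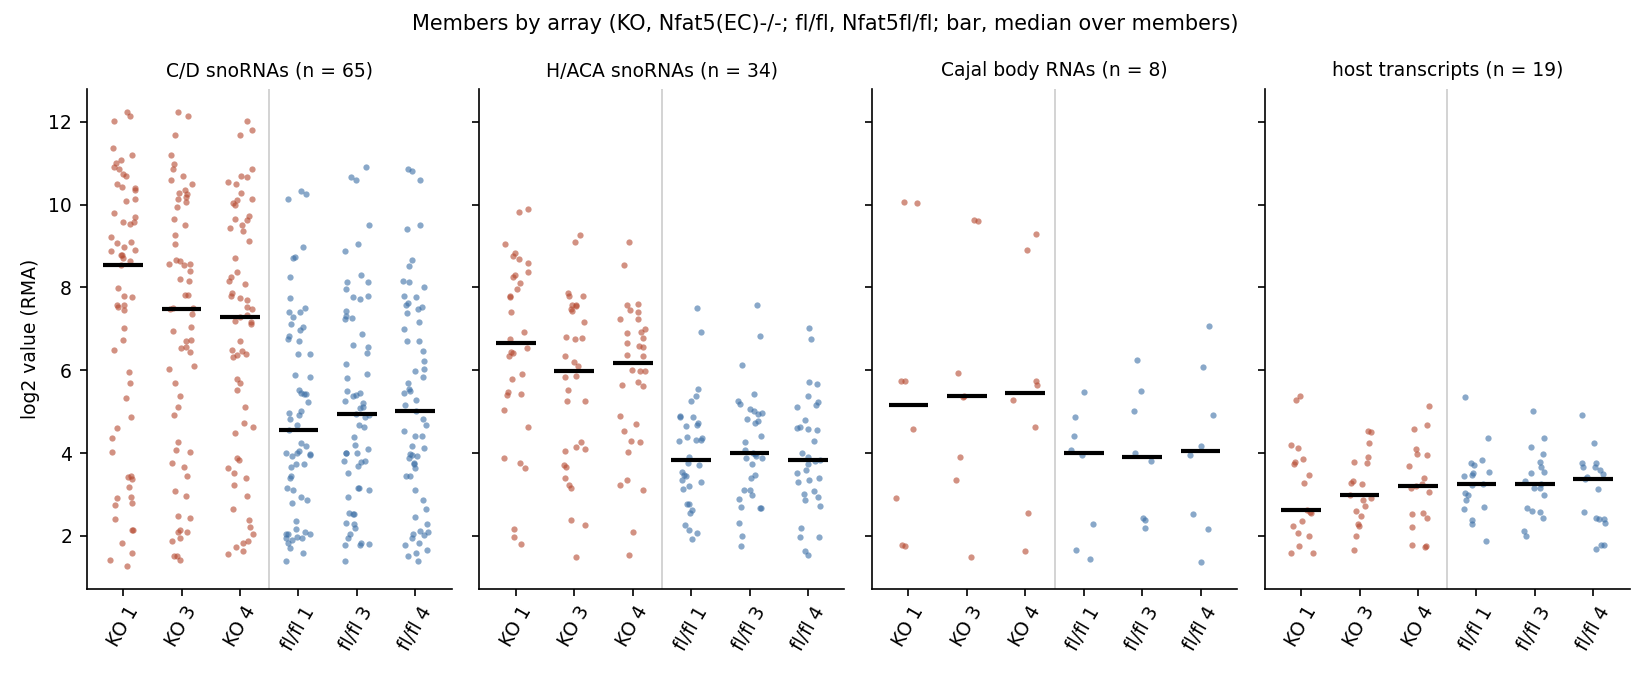
Log2 value (RMA, vertical axis) of every member on each of the 6 arrays, Nfat5(EC)-/- arrays (KO) in red and Nfat5fl/fl arrays (fl/fl) in blue, with 1 point per member and a black bar at the median. The medians of the C/D snoRNAs were 8.54, 7.48 and 7.27 in the Nfat5(EC)-/- lungs and 4.57, 4.95 and 5.03 in the Nfat5fl/fl lungs, whereas the medians of the host transcripts lay between 2.62 and 3.36 on all arrays.

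Over all guide RNAs the array medians were 7.57, 6.71 and 6.56 in Nfat5(EC)-/- mice 1, 3 and 4, against 4.18, 4.42 and 4.40 in the Nfat5fl/fl lungs. For 88 guide RNAs all 3 Nfat5(EC)-/- values lay above all 3 Nfat5fl/fl values, for 1 they lay below and for 18 the groups overlapped, while 22% of all features lay above and 20% below without overlap. Guide RNAs were frequent among the features with the largest upward differences. A difference of at least 2 log2 units upwards was found for 119 features (0.468% of all), and 61 of these were guide RNAs. A difference of at least 3 log2 units was found for 21 features (0.0826% of all), and 17 of these were guide RNAs. At least 1 log2 unit was reached by 84 guide RNAs, against 7.22% of all features.

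The individual mice did not contribute equally. Nfat5(EC)-/- mouse 1 had the highest value of its group for 79 of 107 guide RNAs (48 C/D snoRNAs, 27 H/ACA snoRNAs and 4 Cajal body RNAs), and for 9189 of all 25428 features. Nfat5fl/fl mouse 1 had the lowest value of its group for 61 guide RNAs, and for 8678 of all features. The median SD between mice was 0.43 in Nfat5(EC)-/- lungs and 0.29 in Nfat5fl/fl lungs for the guide RNAs, against 0.30 and 0.20 for all features. When limma estimated a weight for each array, Nfat5(EC)-/- mice 1 and 4 received 0.499 and 0.598, and the other 4 arrays received 1.05 to 1.78. The part of array quality in the differences of the guide RNAs was not tested, and the sources used here give no RNA integrity values.

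Of the 65 C/D snoRNAs, 53 were called higher and 0 lower, and the differences ran from -0.67 to 4.92 with a median of 2.21. Snord13, which pairs with small subunit ribosomal RNA and directs its acetylation, had the largest difference of all members. It read 9.59, 8.67 and 9.99 in the Nfat5(EC)-/- lungs and 4.01, 4.95 and 4.53 in the Nfat5fl/fl lungs, a difference of 4.92 (SE 0.36) or 30.3-fold. The groups were separated by more than the whole range within either of them.

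Snord71 read 10.40, 9.66 and 9.52 in the Nfat5(EC)-/- lungs, against 5.88, 6.42 and 7.18 in the Nfat5fl/fl lungs (difference 3.37, SE 0.35). Snord104 read 10.91, 10.34 and 10.14 in the Nfat5(EC)-/- lungs, against 6.39, 7.26 and 7.80 in the Nfat5fl/fl lungs (difference 3.32, SE 0.36). In both cases Nfat5(EC)-/- mouse 1 was the highest and Nfat5fl/fl mouse 1 the lowest array, and the groups remained apart. Snord12 read 8.91, 8.16 and 7.53 in Nfat5(EC)-/- lungs, against 4.57, 5.25 and 5.45 in Nfat5fl/fl lungs (difference 3.11, SE 0.36). Snord66 read 7.99, 7.50 and 7.34 in Nfat5(EC)-/- lungs, against 3.65, 4.87 and 5.15 in Nfat5fl/fl lungs (difference 3.05, SE 0.37). Snord15b read 11.09, 10.85 and 10.66 in Nfat5(EC)-/- lungs, against 7.40, 7.95 and 8.14 in Nfat5fl/fl lungs (difference 3.04, SE 0.24). None of these 3 overlapped between the groups. They were named because their differences were among the 6 largest of the class, so nothing is read from the similar size of these differences.

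Snord32a, Snord33 and Snord100 had the brightest features of the C/D snoRNAs. Snord32a read 12.24, 12.24 and 12.01 in Nfat5(EC)-/- lungs, against 10.25, 10.66 and 10.60 in Nfat5fl/fl lungs (difference 1.66, SE 0.20). Snord33 read 12.13, 11.69 and 11.69 in Nfat5(EC)-/- lungs, against 10.13, 10.60 and 10.85 in Nfat5fl/fl lungs (difference 1.31, SE 0.24). Snord100 read 12.01, 12.13 and 11.79 in Nfat5(EC)-/- lungs, against 10.32, 10.91 and 10.80 in Nfat5fl/fl lungs (difference 1.30, SE 0.22). The differences of these 3 were below the median of the class, while the groups did not overlap for any of them. No feature exceeded 13.01, and the part of the upper end of the scale in these differences was not tested.

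At the other end of the class were Snord64, Snord88a and Snord19. Snord64, a guide RNA from the imprinted region of Snhg14, read 1.84, 1.41 and 1.64 in Nfat5(EC)-/- lungs, against 1.72, 1.39 and 1.52 in Nfat5fl/fl lungs (difference 0.09, SE 0.20). Snord88a differed by 0.03 (SE 0.28) and Snord19 by -0.06 (SE 0.23). In all 3 the groups overlapped, and all their values lay below 3. Snord4a, chosen after its values were seen, was the 1 guide RNA that lay lower without overlap, at 1.59, 1.51 and 1.56 in Nfat5(EC)-/- lungs and 2.35, 2.54 and 1.78 in Nfat5fl/fl lungs (difference -0.67, SE 0.23). It was not called in the fit. The 12 C/D snoRNAs that were not called differed by -0.67 to 0.63.

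Of the 34 H/ACA snoRNAs, 27 were called higher and 0 lower, and the differences ran from -0.11 to 4.38 with a median of 2.18. The largest were those of Snora73a and Snora73b, vertebrate relatives of a yeast snoRNA that acts in the cleavage of precursor ribosomal RNA. Snora73a read 8.82, 7.80 and 7.25 in Nfat5(EC)-/- lungs, against 3.46, 3.75 and 3.51 in Nfat5fl/fl lungs (difference 4.38, SE 0.36, 20.8-fold). Snora73b read 9.81, 9.10 and 8.53 in Nfat5(EC)-/- lungs, against 4.87, 5.05 and 5.11 in Nfat5fl/fl lungs (difference 4.14, SE 0.31, 17.6-fold). The Nfat5fl/fl mice lay within 0.3 log2 units of each other for both, and the Nfat5(EC)-/- mice were spread over more than 1 unit, with mouse 1 highest. Both come from Snhg3 and are close copies, so their probes may not tell them apart.

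Snora16a read 8.77, 7.87 and 7.24 in Nfat5(EC)-/- lungs, against 4.72, 4.83 and 4.60 in Nfat5fl/fl lungs (difference 3.24, SE 0.34). Snora52 read 8.59, 7.49 and 7.46 in Nfat5(EC)-/- lungs, against 4.35, 5.01 and 4.56 in Nfat5fl/fl lungs (difference 3.21, SE 0.33). Snora64 read 8.26, 6.75 and 6.90 in Nfat5(EC)-/- lungs, against 4.32, 4.26 and 3.74 in Nfat5fl/fl lungs (difference 3.20, SE 0.38). Nfat5(EC)-/- mouse 1 was again the highest array in all 3. Snora61 read 6.43, 5.83 and 5.98 in Nfat5(EC)-/- lungs, against 3.35, 2.98 and 3.29 in Nfat5fl/fl lungs (difference 2.87, SE 0.22). Snora21 read 9.88, 9.28 and 9.10 in Nfat5(EC)-/- lungs, against 7.49, 7.58 and 7.01 in Nfat5fl/fl lungs (difference 2.06, SE 0.26). Snora23 read 9.04, 7.78 and 7.58 in Nfat5(EC)-/- lungs, against 6.92, 6.84 and 6.75 in Nfat5fl/fl lungs (difference 1.30, SE 0.35). The groups did not overlap for any of these guide RNAs.

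Snora20, Snora70 and Snora2b showed the smallest differences. Snora20 differed by 0.23 (SE 0.22), Snora70 by -0.01 (SE 0.24) and Snora2b by -0.11 (SE 0.39), and their values were under 3.3 on every array. The groups overlapped for all 3. Snora36b, chosen after its values were seen, had the widest spread of the class within a group, at 6.35, 3.16 and 4.26 in Nfat5(EC)-/- lungs against 2.08, 2.67 and 2.20 in Nfat5fl/fl lungs (difference 2.27, SE 0.66). Its Nfat5(EC)-/- mean rested largely on mouse 1.

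Of the 8 Cajal body RNAs, 5 were called higher and 0 lower, with differences of -0.57 to 4.35 around a median of 1.70. Scarna6 read 10.03, 9.63 and 8.91 in Nfat5(EC)-/- lungs, against 4.41, 5.02 and 6.08 in Nfat5fl/fl lungs (difference 4.35, SE 0.43, 20.4-fold). Scarna2, which guides methylation of the U2 spliceosomal RNA, read 10.06, 9.60 and 9.29 in Nfat5(EC)-/- lungs, against 5.49, 6.24 and 7.08 in Nfat5fl/fl lungs (difference 3.38, SE 0.38). In both, the lowest Nfat5(EC)-/- mouse was more than 2 log2 units above the highest Nfat5fl/fl mouse.

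Scarna10, which acts on the U5 spliceosomal RNA, read 4.59, 3.91 and 4.64 in Nfat5(EC)-/- lungs, against 2.28, 2.20 and 2.53 in Nfat5fl/fl lungs (difference 2.04, SE 0.24). Scarna13 read 5.75, 5.93 and 5.73 in Nfat5(EC)-/- lungs, against 3.94, 3.80 and 4.17 in Nfat5fl/fl lungs (difference 1.83, SE 0.19). Scarna9 read 5.73, 5.36 and 5.64 in Nfat5(EC)-/- lungs, against 4.08, 4.01 and 3.94 in Nfat5fl/fl lungs (difference 1.57, SE 0.19). The groups did not overlap for these 3, and in none of them was Nfat5(EC)-/- mouse 1 the highest and Nfat5fl/fl mouse 1 the lowest array at once. Scarna8 differed by 0.75 (SE 0.41) and Scarna3a by -0.39 (SE 0.27), both with overlap. Scarna3b read 2.91, 5.39 and 5.27 in Nfat5(EC)-/- lungs, against 4.87, 5.49 and 4.93 in Nfat5fl/fl lungs (difference -0.57, SE 0.58), and without Nfat5(EC)-/- mouse 1, the 1 low array, the difference was 0.23.

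**Figure D2:**
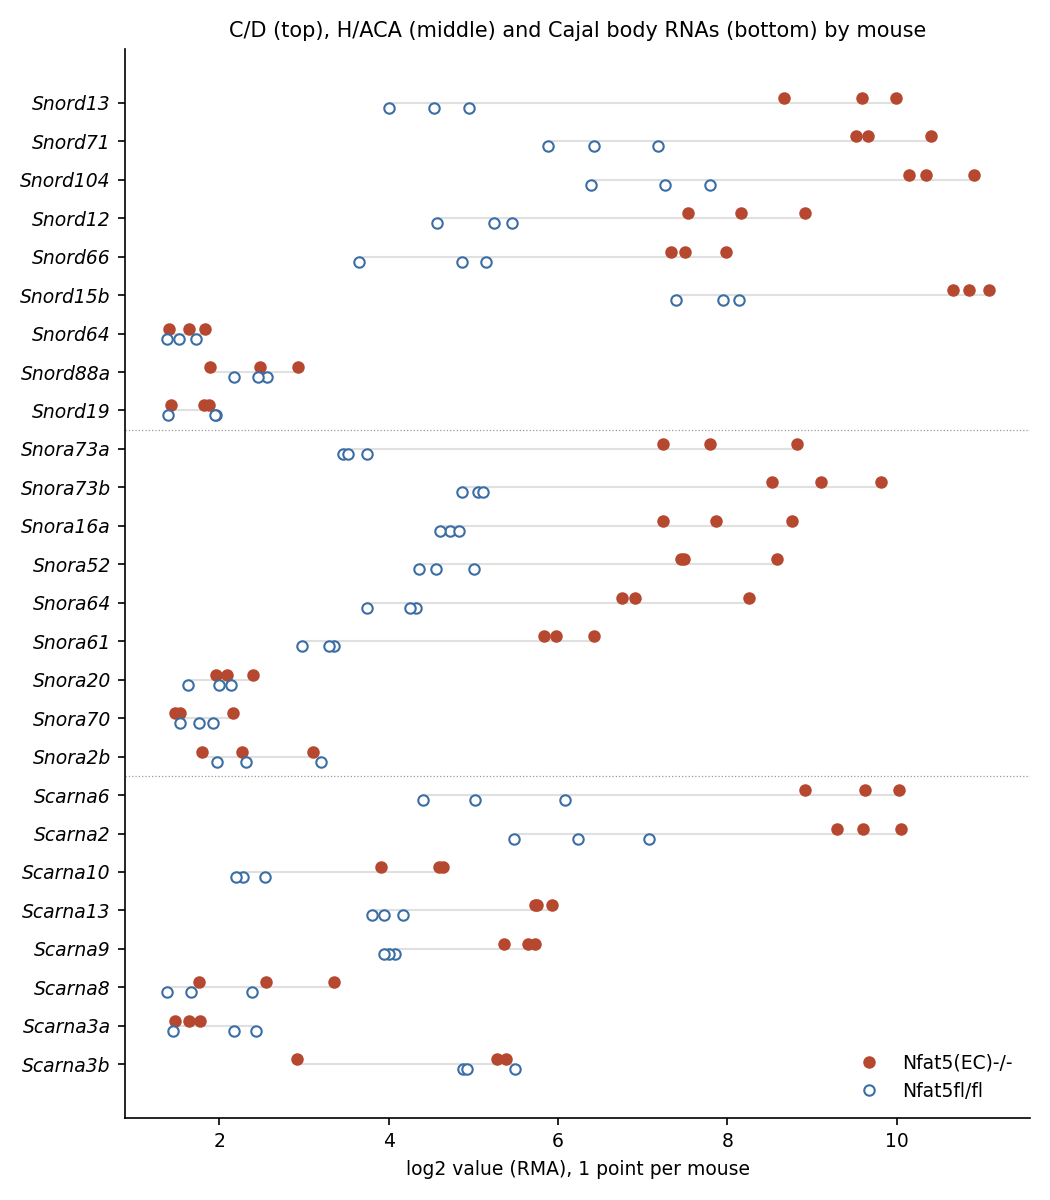
Log2 values (RMA, horizontal axis) of 26 guide RNAs, with 1 point per mouse, Nfat5(EC)-/- as filled red points above Nfat5fl/fl as open blue points in each row. For the 6 C/D and 6 H/ACA snoRNAs with the largest differences and for Scarna6, Scarna2, Scarna10, Scarna13 and Scarna9 the groups were apart, and for the other 9 they overlapped.

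Several guide RNAs belong to families of close copies, whose probes may share sequence, so that copies cannot be counted as separate observations. Both copies differed by similar amounts for Snord15a and Snord15b (2.90 and 3.04), Snord35a and Snord35b (2.89 and 3.04), Snord42a and Snord42b (2.04 and 2.52), Snord49a and Snord49b (2.89 and 2.60) and Snord73a and Snord73b (2.43 and 2.91). The pair Snord14a and Snord14e was unequal, with 0.36 and 1.94, although both carry the same family name. Snord88a and Snord88c differed by 0.03 and 0.50.

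The guide RNAs that were dimmest in Nfat5fl/fl lungs had smaller differences than the others. The 26 guide RNAs with a mean under 3 in Nfat5fl/fl lungs had a median difference of 0.58, and 12 of them lay higher without overlap. The 38 with a mean of 3 to 5 had a median of 2.48, the 25 with 5 to 7 had 2.71, and the 18 with 7 and above had 2.30, and 34, 24 and 18 of these lay higher without overlap. Among guide RNAs only the range under 3 thus stood apart, and the medians did not rise steadily above it. Over all features in the same ranges the medians were 0.097, 0.03, -0.51 and -0.76, so that brighter features in general read lower in Nfat5(EC)-/- lungs. Spearman's rho between the Nfat5fl/fl mean and the difference was 0.497 across the 107 guide RNAs, which share the 6 arrays and are not independent, and the Nfat5fl/fl mean enters both quantities. Low values are compressed on this scale. The length of the RNA, 42 to 275 bases in RefSeq with a median of 84, was hardly related to the difference (rho 0.0806).

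Among other classes of RNA, the 534 microRNA genes had a median difference of 0.02 and 43 were called higher and 41 lower. The 40 clustered replication-dependent histone genes, whose mRNAs lack poly(A) tails, had a median of 0.56, with 18 called higher and 0 lower. The 3037 long non-coding RNAs outside the members had a median of 0.08 with 237 called higher and 121 lower. The microRNA features were thus nearly centred, but most were dim. Of the 534, 427 had an Nfat5fl/fl mean below the median value of those arrays, against 26 of the 107 guide RNAs. The part of brightness in this contrast was not tested. Other non-coding RNAs of known structure, chosen after their values were seen, lay higher. Rmrp, the RNA of a ribonuclease that processes precursor ribosomal RNA, averaged 11.53 in Nfat5(EC)-/- lungs and 9.82 in Nfat5fl/fl lungs (difference 1.71, limma adjusted p = 0.00269). Rpph1, the RNA of ribonuclease P, averaged 9.91 in Nfat5(EC)-/- lungs and 7.19 in Nfat5fl/fl lungs (difference 2.73, adjusted p = 0.00133). Rnu3a, a C/D box RNA that lies outside the naming rule and takes part in the first cleavages of precursor ribosomal RNA, averaged 6.94 in Nfat5(EC)-/- lungs and 3.27 in Nfat5fl/fl lungs (difference 3.67, SE 0.31). Terc, the telomerase RNA, which carries an H/ACA domain, averaged 3.80 in Nfat5(EC)-/- lungs and 2.89 in Nfat5fl/fl lungs (difference 0.91, adjusted p = 0.0292). The 8 features that RefSeq classes as snoRNA under other symbols differed by -0.64 to 0.88 with a median of 0.29. All of them but AF357425 (4.33) had an Nfat5fl/fl mean under 3. The guide RNAs with a mean under 3 had a median difference of 0.58, against 2.17 for all guide RNAs.

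**Figure D3:**
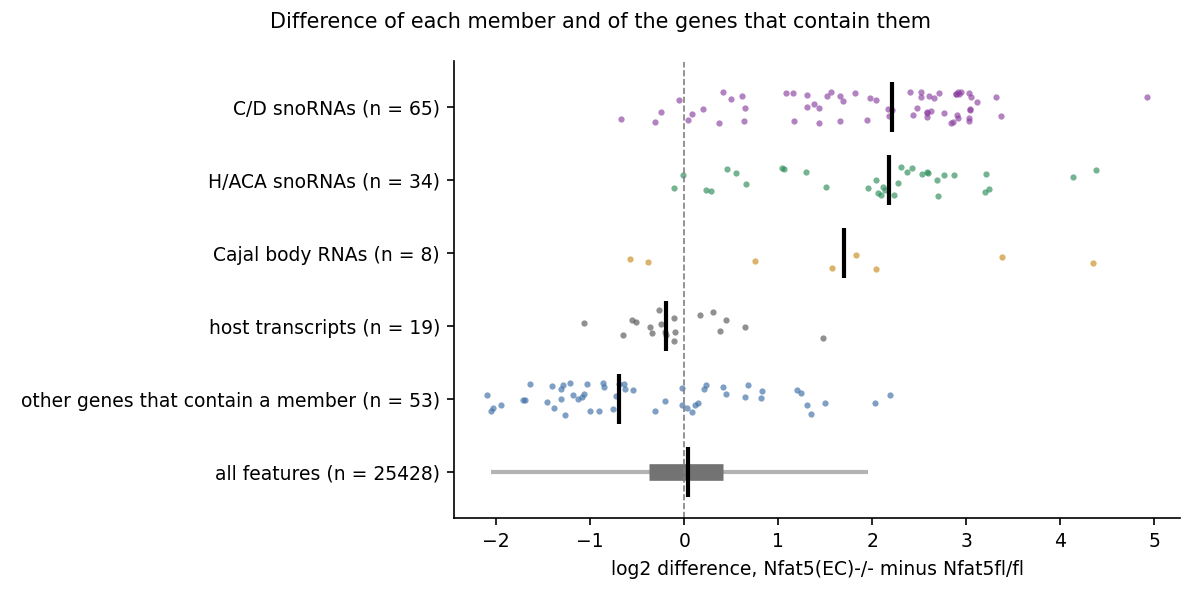
Log2 difference (Nfat5(EC)-/- minus Nfat5fl/fl, horizontal axis) of each C/D snoRNA, H/ACA snoRNA, Cajal body RNA, host transcript member and other gene that contains a guide RNA, with 1 point per gene and a black line at the median. For all 25428 features the thick grey bar spans the middle quartiles (-0.38 to 0.41) and the thin line runs between -2.05 and 1.96, which leave 0.5% of features on each side.

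The host transcripts had smaller differences than most guide RNAs, and they lay on both sides of 0. Snhg9 read 5.38, 4.54 and 4.67 in Nfat5(EC)-/- lungs, against 3.54, 2.98 and 3.66 in Nfat5fl/fl lungs (difference 1.47, SE 0.28), and was the 1 host transcript called higher. Snhg1, the host of Snord22, read 3.28, 4.25 and 4.59 in Nfat5(EC)-/- lungs, against 5.35, 5.02 and 4.93 in Nfat5fl/fl lungs (difference -1.06, SE 0.33), and was the 1 called lower. That call was lost when Nfat5fl/fl mouse 1, Nfat5fl/fl mouse 3, Nfat5(EC)-/- mouse 1 or Nfat5(EC)-/- mouse 3 was left out, with differences of -0.68 to -1.34 over all arrays left out. Snhg5 read 2.24, 2.29 and 2.20 in Nfat5(EC)-/- lungs, against 2.98, 3.32 and 2.41 in Nfat5fl/fl lungs (difference -0.66, SE 0.25). Snhg20 read 5.28, 4.52 and 5.13 in Nfat5(EC)-/- lungs, against 4.37, 4.37 and 4.24 in Nfat5fl/fl lungs (difference 0.65, SE 0.23). Snhg5 and Snhg20 did not overlap between the groups but were not called.

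Gas5, a growth arrest transcript whose exons carry little coding capacity, read 2.62, 2.87 and 3.21 in Nfat5(EC)-/- lungs, against 3.71, 3.52 and 3.14 in Nfat5fl/fl lungs (difference -0.56, SE 0.24). The groups overlapped by 1 mouse. The other host transcripts all overlapped. Snhg16, Snhg17, Snhg8 and Snhg10 differed by 0.44, 0.38, 0.30 and 0.17. Snhg18, Snhg3, Snhg7os, Snhg14, Snhg11, Snhg12 and Snhg7 differed by -0.10, -0.11, -0.11, -0.19, -0.20, -0.25 and -0.27. Snhg15, Snhg4 and Snhg6 differed by -0.35, -0.36 and -0.52, each with an SE of 0.28 to 0.34. Most host transcripts were dim, with array medians of 2.62, 2.98 and 3.21 in Nfat5(EC)-/- lungs and 3.26, 3.26 and 3.36 in Nfat5fl/fl lungs.

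The start regions of 5 host transcripts are shown because host genes of snoRNAs are known for transcripts that begin with a run of pyrimidines, the terminal oligopyrimidine tract that couples translation of ribosomal protein mRNAs to growth signals. The sequences are from RefSeq (GRCm38.p6), 50 bases on each side of the annotated start, in lower case before the start and in capitals from the first transcribed base. They lie at chr1:161035116-161035215 (Gas5, plus strand), chr19:8723437-8723536 (Snhg1, plus strand), chr4:132353637-132353736 (Snhg3, minus strand), chr2:26640195-26640294 (Snhg7, minus strand) and chr4:132308628-132308727 (Snhg12, plus strand).
Gas5: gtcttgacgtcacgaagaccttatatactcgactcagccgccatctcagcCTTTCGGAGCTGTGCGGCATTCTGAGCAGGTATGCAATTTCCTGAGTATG
Snhg1: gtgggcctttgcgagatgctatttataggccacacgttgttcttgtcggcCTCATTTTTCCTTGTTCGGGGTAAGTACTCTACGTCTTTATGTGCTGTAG
Snhg3: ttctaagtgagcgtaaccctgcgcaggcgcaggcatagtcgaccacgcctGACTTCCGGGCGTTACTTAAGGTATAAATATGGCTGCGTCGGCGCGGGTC
Snhg7: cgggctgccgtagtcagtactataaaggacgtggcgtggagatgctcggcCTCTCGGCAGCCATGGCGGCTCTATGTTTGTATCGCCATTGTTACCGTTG
Snhg12: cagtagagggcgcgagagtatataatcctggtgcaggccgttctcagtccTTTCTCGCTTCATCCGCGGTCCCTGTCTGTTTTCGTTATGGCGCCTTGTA
At the annotated start itself, a C followed by 4 bases that are each C or T was found in 3 of 21 windows of host transcripts (14.3%: Gas5, Snhg7 and Snhg8) and in 2.51% of all 32851 RefSeq windows. When starts up to 5 bases on either side were allowed, 8 of the 21 windows (38.1%) and 18.3% of all windows held one. The motif was read on the transcribed strand only, and an annotated start can be off by some bases. The windows belonged to 17 of the 19 host transcripts, of which some have more than 1 annotated start. Gas5 (-0.56), Snhg7 (-0.27) and Snhg8 (0.30) lay on both sides of 0. Of the 5 windows shown, those of Gas5 and Snhg7 hold the motif at the first capital letter. Of the 11 windows of ribosomal protein hosts, 0 held the motif at the start and 2 (18.2%) within 5 bases of it. For the 37 windows of other protein-coding hosts the shares were 2.7% and 16.2%. The search found no motif at the start even in ribosomal protein hosts, so its shares cannot tell which transcripts carry the tract.

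Of the 107 guide RNAs, 85 lay within the RefSeq span of a gene that was measured on the array, 18 within genes that had no feature in the table used here, and 4 (Snord13, Snord118, Snord89 and Scarna2) within no other gene. Among the genes without a feature were Rpl13a, which contains Snord32a, Snord33, Snord34 and Snord35a, and Rps12 with Snora33 and Snord100. The 4 guide RNAs outside other genes differed by 1.68 (Snord118), 2.58 (Snord89), 3.38 (Scarna2) and 4.92 (Snord13), so that high values were also found outside host genes. Strand was not available for containment, and the shortest measured gene was taken where spans overlapped, as for Snord47, Snord87 and Snora78.

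The 85 guide RNAs lay in 65 measured genes, of which 11 were called higher and 23 lower by limma, with a median difference of -0.52. For comparison, 12.5% of all features were called higher and 13.1% lower. The guide RNA had a larger difference than its host in 80 of 85 pairs, with a median gap of 2.22 log2 units. Where the host was called lower (23 genes, 29 guide RNAs), 20 guide RNAs lay higher without overlap and 1 lower, and the median difference of the guide RNAs was 1.57. Where the host was called higher (11 genes, 14 guide RNAs), all 14 lay higher without overlap, with a median of 2.56. Where the host was not called (31 genes, 42 guide RNAs), 33 lay higher without overlap with a median of 2.25. Most guide RNAs thus lay higher whether the host feature was called higher, lower or not called. The groups overlapped for 8 guide RNAs with a lower host, 9 with a host not called and 0 with a higher host. Without Nfat5fl/fl mouse 1, 6 hosts were called higher and 15 lower.

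The 12 hosts of the Snhg group with a guide RNA had a median difference of -0.22, and their 17 guide RNAs a median of 2.40, and all 17 lay above their host. Snhg12 averaged 2.10 in Nfat5(EC)-/- lungs and 2.35 in Nfat5fl/fl lungs (difference -0.25, SE 0.39), whereas Snora16a, Snora44, Snora61 and Snord99 within it differed by 3.24, 2.69, 2.87 and 1.65. Snhg3 averaged 2.84 in Nfat5(EC)-/- lungs and 2.95 in Nfat5fl/fl lungs (difference -0.11, SE 0.24), against 4.38 and 4.14 for Snora73a and Snora73b. Snhg1 differed by -1.06 and its Snord22 by 2.40, with Snord22 values of 10.85 to 11.37 in Nfat5(EC)-/- lungs and 8.65 to 8.87 in Nfat5fl/fl lungs. In these 3 hosts no guide RNA followed the sign of its host.

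Gas5 differed by -0.56 and Snord47 within it by 2.21, at 10.08, 9.52 and 9.36 in Nfat5(EC)-/- lungs against 7.41, 7.42 and 7.49 in Nfat5fl/fl lungs. Snhg7 differed by -0.27, and Snora17 and Snora43 in it by 2.23 and 0.46. Snhg4 (-0.36), Snhg6 (-0.52), Snhg16 (0.44), Snhg18 (-0.10) and Snhg10 (0.17) contained Snora74a (2.09), Snord87 (2.48), Snord1b (3.03), Snord123 (2.65) and Scarna13 (1.83). Snhg9 and Snora78 were the 1 pair of this group with nearly equal differences, 1.47 and 1.50. Snhg14 and Snord64 were both near 0, at -0.19 and 0.09.

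**Figure D4:**
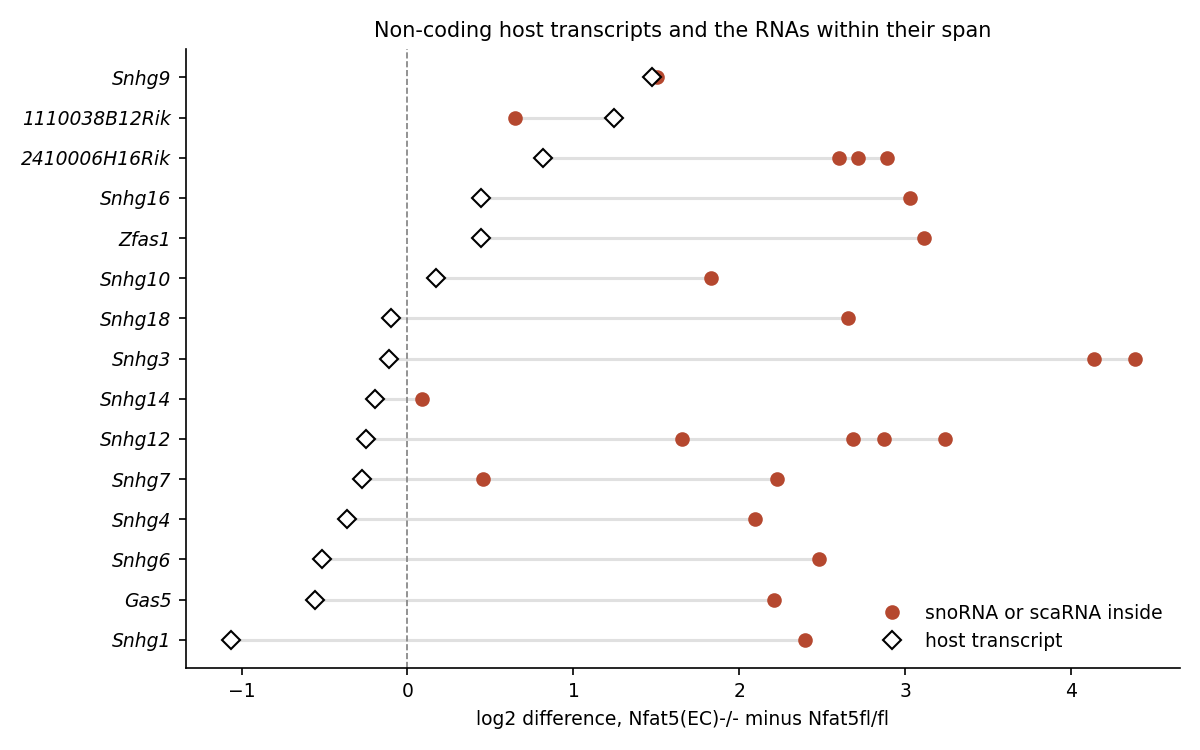
Log2 difference (Nfat5(EC)-/- minus Nfat5fl/fl, horizontal axis) of 15 non-coding host transcripts (open diamonds) and of the snoRNAs and Cajal body RNAs within their span (red points), 1 host per row. All but 1 of the 22 guide RNAs lie to the right of their host, and 9 of the 12 Snhg and Gas5 diamonds lie left of 0.

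Outside the Snhg group, 2410006H16Rik, a non-coding host with 3 guide RNAs, averaged 4.96 in Nfat5(EC)-/- lungs and 4.14 in Nfat5fl/fl lungs (difference 0.82, adjusted p = 0.043), and its Snord49a, Snord49b and Snord65 differed by 2.89, 2.60 and 2.71. Rpl23a, a ribosomal protein gene, averaged 2.04 in Nfat5(EC)-/- lungs and 3.11 in Nfat5fl/fl lungs (difference -1.07, adjusted p = 0.0332), and Snord42a, Snord42b and Snord4a in it differed by 2.04, 2.52 and -0.67. Eif4a2, a translation initiation helicase, fell by 0.91 on the log2 scale (adjusted p = 0.00808), and Snora81 and Snord2 in it differed by 0.28 and 1.43. The guide RNAs of 2410006H16Rik thus lay close together, whereas those of Rpl23a and Eif4a2 were spread. Gnl3, a nucleolar GTPase, differed by -0.64 (adjusted p = 0.0723), and Snord19 and Snord69 in it by -0.06 and 2.62. Kansl2 differed by 0.21 and its Snora2b and Snora34 by -0.11 and 1.95. 2410002F23Rik differed by 0.09 and Snord88a and Snord88c in it by 0.03 and 0.50.

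The 13 ribosomal protein hosts had a median difference of -0.02 with 4 called higher and 3 lower, and all 18 guide RNAs in them lay above their host. Rps3a1 and Rps2, chosen after their values were seen, rose with their guide RNAs. Rps3a1 averaged 5.47 in Nfat5(EC)-/- lungs and 3.28 in Nfat5fl/fl lungs (difference 2.19, adjusted p = 0.0101), and Rps2 averaged 4.45 in Nfat5(EC)-/- lungs and 2.42 in Nfat5fl/fl lungs (difference 2.03, adjusted p = 0.00354). Their guide RNAs Snord73a, Snord73b and Snora64 differed by 2.43, 2.91 and 3.20. Ribosomal protein mRNAs have many processed pseudogenes, so that probes for them can cross-hybridise. The 37 other protein-coding hosts had a median of -0.86 with 4 called higher and 19 lower, and 41 of the 45 guide RNAs in them lay above their host. Among all protein-coding genes 13.2% were called higher and 15.1% lower.

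Protein-coding genes with a genomic span of 20 kb and above had lower median differences than shorter ones. The median difference was 0.17 for the 4062 protein-coding features of less than 5 kb, 0.17 for 6202 of 5 to 20 kb, -0.09 for 5452 of 20 to 60 kb and -0.32 for 3970 of 60 kb and above. The protein-coding hosts in these ranges numbered 14, 17, 13 and 6 and had medians of -0.47, 0.09, -1.03 and -1.40. The part of gene span and of brightness in the low host values was not tested.

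**Figure D5:**
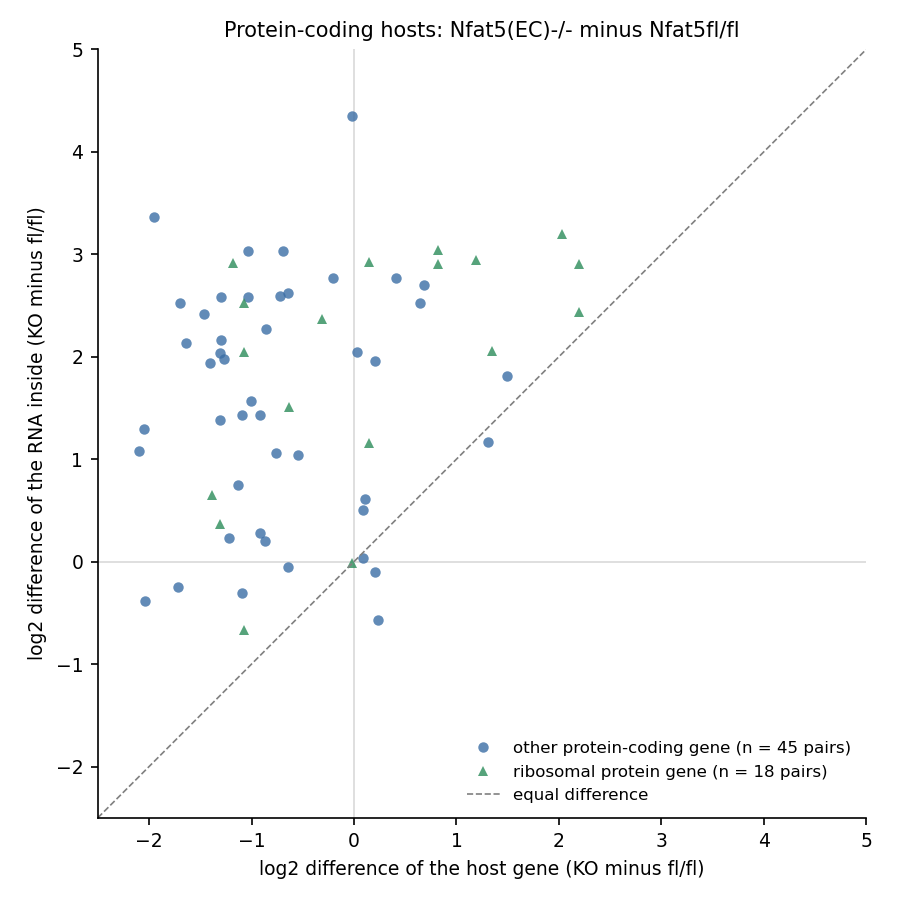
Log2 difference (Nfat5(EC)-/-, KO, minus Nfat5fl/fl, fl/fl) of guide RNAs (vertical axis) against that of the protein-coding gene that contains them (horizontal axis), with 1 point per pair, 18 pairs with ribosomal protein genes as green triangles and 45 pairs with other genes as blue circles. The dashed line marks equal differences, and 59 of the 63 points lie above it.

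The genes that build, mature or degrade snoRNA particles did not move together. Over 8 lists of such genes 13 of 97 measured genes rose, 25 fell and 59 did not pass the test (limma, adjusted p under 0.05), with a median difference of -0.19. Over all features 12.5% were called higher and 13.1% lower, with a median of 0.042. Without Nfat5fl/fl mouse 1 the list counts were 5 and 14, and without Nfat5fl/fl mouse 3 they were 4 and 13. For the core proteins of C/D particles, the scaffold Nop56 averaged 3.73 ± 0.79 in Nfat5(EC)-/- lungs and 5.02 ± 0.16 in Nfat5fl/fl lungs (SD, n = 3 each) and fell by 1.29 (limma adjusted p = 0.0272). Its partner Nop58 differed by -1.03 (adjusted p = 0.0727) and the methyltransferase Fbl by 0.86 (adjusted p = 0.0922). With array weights both passed the threshold (adjusted p = 0.0329 for Nop58 and 0.0359 for Fbl) and Nop58 also passed with the filter on dim features (adjusted p = 0.0484) and without Nfat5(EC)-/- mouse 4 (difference -1.48, adjusted p = 0.00811). Snu13 was not measured.

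Among the core proteins of H/ACA particles, Nhp2 rose to 5.42 ± 0.20 in Nfat5(EC)-/- lungs, against 4.47 ± 0.03 in Nfat5fl/fl lungs (difference 0.95, limma adjusted p = 0.00804). The pseudouridine synthase Dkc1 fell to 3.21 ± 0.15 in Nfat5(EC)-/- lungs, against 4.00 ± 0.15 in Nfat5fl/fl lungs (difference -0.79, adjusted p = 0.0171). Gar1 differed by 0.46 (adjusted p = 0.125) and Nop10 by 0.10 (adjusted p = 0.792). Nhp2 and Dkc1 thus moved in opposite directions, although the 4 proteins act as one complex. Of 9 assembly factors, Ruvbl2, an ATPase of the chaperone complex, rose by 0.89 (adjusted p = 0.0122), and Nufip1 and Shq1 fell by 0.82 and 0.64 (adjusted p = 0.0253 and 0.044), while Znhit3 differed by 0.52 (adjusted p = 0.0602).

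Of 12 Cajal body and transport factors 0 rose and 3 fell. Tgs1, which adds the trimethylguanosine cap of independently transcribed snoRNAs, fell to 2.39 ± 0.73 in Nfat5(EC)-/- lungs, against 5.10 ± 0.35 in Nfat5fl/fl lungs (difference -2.71, limma adjusted p = 0.00229). The export receptor Xpo1 fell by 1.32 (adjusted p = 0.00646) and the cap-binding protein Ncbp1 by 1.50 (adjusted p = 0.0166), while Tcof1 differed by 0.55 (adjusted p = 0.0769). Of 19 genes for lariat debranching, trimming and decay 2 rose and 7 fell, with a median of -0.52. The exonuclease Xrn1 fell by 1.66, the cofactors Zcchc7 and Mtrex by 1.41 and 1.49 and the poly(A) polymerase Tent4b by 1.03 (adjusted p = 0.00293, 0.00366, 0.0041 and 0.00963). The debranching enzyme Dbr1, which opens the intron lariats from which guide RNAs are released, differed by 0.19 (adjusted p = 0.537, named after its value was seen).

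Of 10 measured genes of nonsense-mediated decay, the pathway that removes many Snhg transcripts, 2 rose and 2 fell. The kinase Smg1 fell by 2.20 and Upf2 by 1.71, and Smg9 and Casc3 rose by 0.89 and 0.81 (limma adjusted p = 0.00223, 0.00397, 0.0175 and 0.026). Of 30 genes for ribosomal RNA transcription and processing 4 rose and 7 fell. Rrp9, a protein of the particle that holds Rnu3a, rose by 1.42 and Bop1 by 1.41, and Utp14a fell by 1.45 and nucleolin (Ncl), which also hosts Snora75 and Snord82, by 1.31. Of 10 regulators of oligopyrimidine mRNAs 3 rose and 2 fell, with Eif4ebp1 and Eif4ebp2 higher by 0.71 and 0.70 and Cnbp and Rheb lower by 1.24 and 0.74. The calls of Nop56, Ncbp1, Nufip1, Smg9, Eif4ebp1 and Eif4ebp2 were lost when any 1 of Nfat5fl/fl mice 1, 3 and 4 was left out, those of Dkc1, Rheb and Casc3 without Nfat5fl/fl mouse 1 or 3, that of Ruvbl2 without Nfat5fl/fl mouse 3 and that of Shq1 without any 1 of the 6 mice. Nufip1 also lost its call without Nfat5(EC)-/- mouse 1, Eif4ebp2 without Nfat5(EC)-/- mouse 3 and Casc3 without Nfat5(EC)-/- mouse 4. Nhp2, Tgs1, Xpo1, Xrn1, Zcchc7, Mtrex, Tent4b, Smg1, Upf2, Rrp9, Bop1, Utp14a, Ncl and Cnbp kept theirs under every alternative in which they were tested. Shq1 was also lost when arrays were centred on protein-coding features (adjusted p = 0.0529) and with trend and robust moderation (adjusted p = 0.0612), while Znhit3 passed when centred (adjusted p = 0.0468) and Tcof1 without Nfat5(EC)-/- mouse 1 (adjusted p = 0.0466).

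Markers of lung cell types were called in both directions. The share called over all features was 12.5% higher and 13.1% lower, and the marker lists are short, so nothing is read from their counts. Of 15 endothelial markers 4 rose and 6 fell, and their mean over the list was 6.77 to 7.00 on the Nfat5(EC)-/- arrays and 7.15 to 7.32 on the Nfat5fl/fl arrays. The list means of alveolar type 2 markers were 8.73 to 9.17 on the Nfat5(EC)-/- arrays and 9.25 to 9.39 on the Nfat5fl/fl arrays, with 1 of 8 higher and 2 lower. Of 8 fibroblast and smooth muscle markers 2 rose and 0 fell, with list means of 6.69 to 6.87 on the Nfat5(EC)-/- arrays and 6.34 to 6.66 on the Nfat5fl/fl arrays. Of 6 alveolar type 1 markers 1 rose and 2 fell, and of 8 T, B and NK cell markers 1 rose and 0 fell. Of 7 macrophage markers 1 rose and 2 fell, of 5 club cell markers 0 rose and 2 fell, of 6 cardiac muscle markers 2 rose and 0 fell, and of 6 neutrophil and 4 erythroid markers 0 were called. Of 12 immediate early genes, which are induced fast when tissue is handled, 4 rose and 0 fell, with list means of 5.10 to 5.28 on the Nfat5(EC)-/- arrays and 4.38 to 4.78 on the Nfat5fl/fl arrays. The part of cell composition and of tissue handling in the values of the guide RNAs was not tested, and in whole lung fewer cells of a type cannot be told apart from less RNA per cell.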

How the data were processed

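Lung lobes of 3 Nfat5(EC)-/- and 3 Nfat5fl/fl mice were measured on 1 Affymetrix array each. The deposited log2 values were made by the authors with RMA. The sources used here do not give its version, how features were defined or the genome build. After sorting, arrays differed by no more than 0.00183, so a change in total RNA would not be visible, and no detection calls were used. Of 25428 features, 24705 had 1 gene symbol and 723 none. All features were fitted with limma 3.58.1 (R 4.3.3; lmFit, eBayes, 2-sided, Benjamini-Hochberg, threshold 0.05) without covariate or filter, and tested on simulated data. Gene spans, RNA lengths and start windows are RefSeq's (GRCm38.p6), and all 126 members had an entry. Spans were compared without strand. The members and gene lists were chosen with earlier results of these data known. Named were, per guide RNA class, the 6 largest and 3 smallest differences and the 3 highest mean values, all host transcripts and core proteins, the 4 smallest p of each other pathway list, and the 6 other hosts with most members, ties in alphabetical order. The 12 alternatives were a mouse-number block, a filter on dim features, cyclic loess, centring on protein-coding features, trend with robust moderation, array weights and leaving out each array. Plots were made in Python 3.11.15 (matplotlib 3.10.9).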

Additional observations from a re-analysis of the deposited data

How the results depend on the processing

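The counts of C/D and H/ACA snoRNAs and Cajal body RNAs called higher stayed within 1.5 times under all 12 alternatives. With trend and robust moderation, 1 C/D snoRNA was called lower. With the filter on dim features the Cajal body median was 1.94. Leaving out 1 array at a time gave 3017 to 6365 called features (1462 to 3138 higher, 1555 to 3227 lower), the fewest without Nfat5fl/fl mouse 3 (3017) and mouse 1 (3273), and the cause was not tested. C/D snoRNAs called lower then numbered 0 to 1, host transcripts called higher 1 to 2 and lower 0 to 1, genes that contain a guide RNA 6 to 11 higher and 15 to 23 lower, and pathway genes 4 to 14 higher and 13 to 26 lower. Nop10 ranged from -0.084 without Nfat5(EC)-/- mouse 4 (a reversed sign, cause not tested) to 0.249 without Nfat5(EC)-/- mouse 1. No pairing by mouse number was seen. Deviations of same-numbered mice correlated at 0.0647, -0.0103 and 0.00719, and those of differently numbered mice at -0.11 to 0.105. These correlations over all features could miss a pairing that touches few of them. With the number as a replicate block, 6310 features were called, host transcripts called lower numbered 0, and 26 H/ACA and 52 C/D snoRNAs were called higher. With 3 arrays per group the precision of every value is limited, and features near the low end of the scale have no detection call.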
